A study of Mus musculus with 22 samples.

Results

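The older LINE families of the mouse are the long interspersed elements outside the young L1Md group. They were taken from the repeat entries of a count table by name: every entry that begins with L1M, L1P or L1V, the Lx entries, the HAL1 entries and the L2 entries, without those that begin with L1Md and without gene symbols. This gave 120 of 44749 entries, where 43672 entries are genes and 1077 are repeat families. They comprise 21 Lx families, 3 L1VL, 2 L1P, 9 L1MA, 7 L1MB, 11 L1MC, 6 L1MD, 27 L1ME, 24 with a digit after L1M (L1M1 to L1M8), 1 named L1M alone, 5 HAL1 and 4 L2.

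LINEs are retrotransposons that copy themselves through an RNA with their own reverse transcriptase. L1Md elements are the young mouse L1 families that still hold mobile copies; the Lx families are an older, rodent-specific layer, the series from L1MA to L1ME are progressively older mammalian L1 remnants, HAL1 is an L1 lineage that kept only the RNA-binding protein's reading frame, and L2 belongs to a separate and still more ancient LINE clade. Nearly all old copies are truncated and no longer mobile, many lie inside introns, and their RNA is thus often part of a longer transcript. In embryonic stem cells (ESCs) LINE chromatin is held silent by histone and DNA methylation, and LINE RNA can carry N6-methyladenosine (m6A), a mark that METTL3 writes and that YTHDC1, its nuclear reader, binds.

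RNA was measured in 22 libraries from mouse ESCs grown without feeders in serum and LIF, derived from male 129 embryos. In the Ythdc1 set, 4 libraries of Ythdc1 conditional knockout (cKO) cells given 4OHT (hydroxytamoxifen, used to induce the deletion) were set against 4 given its solvent DMSO. These 8 came from 2 ESC lines, and the deposited columns do not say which library belongs to which line. In the Mettl3 set, 2 Mettl3 KO libraries were set against 2 WT. In the Dux set, all libraries carry the Ythdc1-cKO allele: 2 Dux-KO with 4OHT and 2 Dux-KO with DMSO, 2 Dux-Het with 4OHT and 2 Dux-Het with DMSO, and 1 library with 4OHT and 1 with DMSO that carry no Dux label. Dux encodes the transcription factor that switches on genes of the two-cell embryo, and the Dux-KO libraries ask whether the response to Ythdc1 loss needs it. Whether replicates were grown as separate cultures is not stated, so the p-values rest on the spread between these libraries alone, which may be technical. The sources used here do not give the length of treatment or the Cre that was used.

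Libraries held 24955414 to 54139132 counts. Levels are given as CPM (counts scaled to a common library total) after TMM scaling over all entries, and log2 fold changes and adjusted p-values (Benjamini-Hochberg over all entries tested) are from edgeR's quasi-likelihood test. Ythdc1 itself was at 63.4, 49.5, 61.2 and 52.2 CPM in 4OHT libraries of the Ythdc1 set, against 82.2, 71.9, 75.1 and 79.3 CPM in DMSO libraries (log2 fold change -0.41, SE 0.08, adjusted p = 0.000640). Mettl3 was at 14.5 and 28.5 CPM in the libraries labelled Mettl3 KO, against 28.7 and 29.9 CPM in WT (adjusted p = 0.207), so KO replicate 2 was at the WT level of this whole-gene count. The Ythdc1 count did not pass the test in Dux-Het cells (adjusted p = 0.456) or Dux-KO cells (adjusted p = 0.843). The deleted parts of the genes are not given, so counts over whole genes need not show a deletion. DMSO replicate 1 of the Ythdc1 set stood apart from the other DMSO libraries (its counts differed from theirs by a chi-square of 31.0 to 37.1 per degree of freedom, where the other pairs of DMSO libraries had 8.44 to 10.8), and the 2 Dux-KO DMSO libraries differed most of all replicate pairs (99.1).

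Each family has 1 count per library, summed over its copies in the genome. The files give no length or coordinates for these copies, so a larger count does not mean a higher level per copy, and reads from a LINE's own RNA cannot be told apart from reads of introns or other transcripts that contain a copy. In these bulk libraries a change of RNA per cell and a change in the share of some cells likewise cannot be told apart. Consensus sequences of the families are not printed here. Most of the counts sat in few families: the 21 Lx families held 44.9 to 49.8% of the summed older LINE CPM in the 22 libraries, the 4 L2 families 11.7 to 14.6%, and Lx8 alone 8.78 to 9.30%.

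Summed over the 120 families, older LINE RNA was at 34764, 31954, 34224 and 32880 CPM in Ythdc1-cKO 4OHT libraries, against 26343, 29351, 29099 and 27975 CPM in DMSO libraries. The mean was 33456 ± 1277 CPM with 4OHT and 28192 ± 1370 CPM with DMSO (SD, n = 4 each), 18.7% higher with 4OHT, and every 4OHT library lay above every DMSO library. Repeats as a whole were also higher: they took 27.9 ± 0.734% of all counts in 4OHT libraries and 23.0 ± 1.18% in DMSO libraries. Older LINEs made up 11.8 ± 0.164% of the repeat counts with 4OHT and 11.6 ± 0.157% with DMSO, and by this share the groups overlapped. Set against the young L1Md families, the order turned round: there were 2.54, 2.61, 2.75 and 2.75 older LINE counts per L1Md count in 4OHT libraries, against 2.81, 3.15, 3.29 and 3.29 in DMSO libraries. The groups did not overlap in this ratio, which was lower in every 4OHT library.

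**Figure D1:**
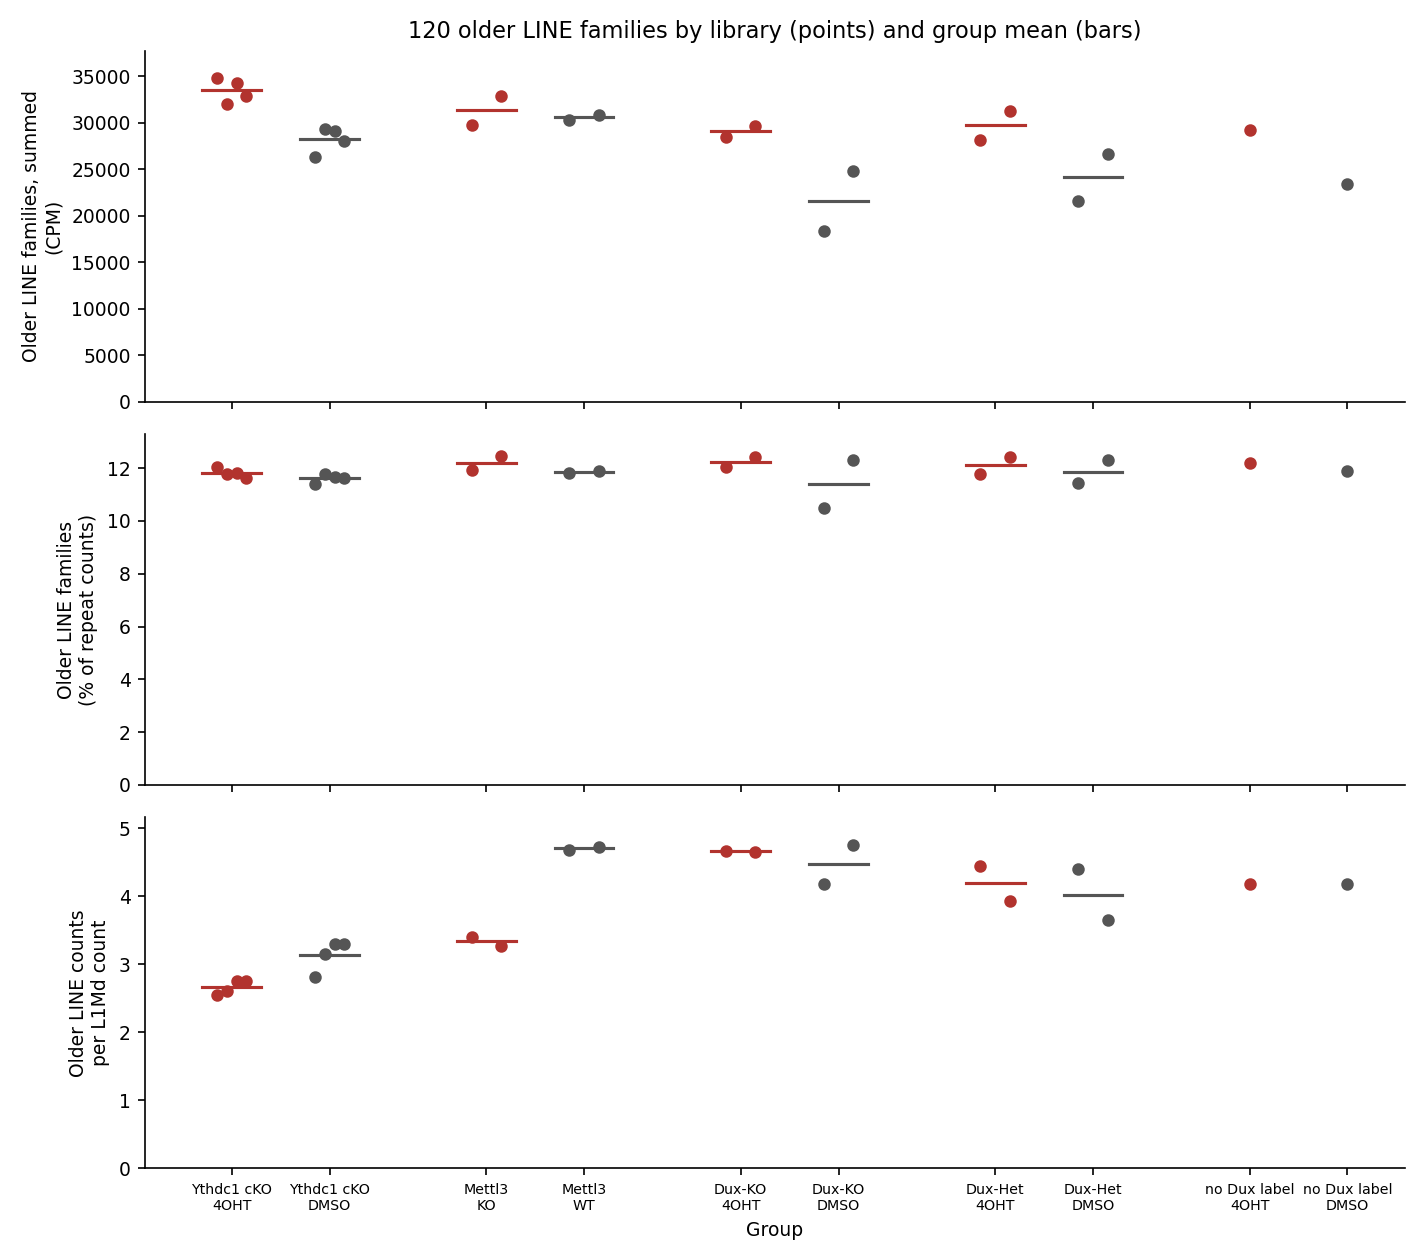
Older LINE RNA in each of the 22 libraries by group, each point 1 library and each bar the group mean: the summed level in CPM, the share of all repeat counts in percent, and the older LINE counts per L1Md count. In the Ythdc1 set the 4OHT libraries sit at 31954 to 34764 CPM, above the DMSO libraries at 26343 to 29351 CPM, while the shares of repeat counts overlap.

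Family by family, 92 of the 119 older LINE families tested rose in Ythdc1-cKO 4OHT cells and 27 did not pass the test. Among all 24385 entries tested 23.7% rose and 21.4% fell, and 61.7% of the 1032 repeat families rose. At an unadjusted p under 0.05 there were 98, all higher; 0 families fell by edgeR and 0 by DESeq2, which called 89 higher. The median log2 fold change was 0.25, against 0.02 over all entries and 0.28 over repeat families. It was positive in 118 of the 119 families, the exception being L1MEj at -0.07. In 75 families every 4OHT library lay above every DMSO library, which held for 20.1% of all entries tested and 52% of repeat families. L1M2a1 was too low to be tested, at 0.0931 ± 0.0942 CPM with 4OHT and 0.197 ± 0.107 CPM with DMSO (SD, n = 4 each).

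These calls are relative to the TMM scaling over all entries. When libraries were scaled on repeat entries alone, which asks whether a family changed relative to other repeats, the median over all entries moved to -0.27, and 14 older LINE families rose and 7 fell, with a median of -0.04. The families that rose relative to other repeats were the 3 L1VL, 5 of the Lx (Lx2A1, Lx3_Mus, Lx2B, Lx5 and Lx4A), 4 of the numbered L1M families (L1M3c, L1M3a, L1M6 and L1M2a), L1MCb and L1ME3F. The families that fell relative to other repeats were L1MB3, L1MB5, L1MB7, L1MB8, L1MC4, L1MC5 and L1MEj, 6 of them from the L1MB and L1MC series. Of the 6 L1Md families, 5 rose on this scale and all 6 on the scale of all entries, where their median was 0.53.

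The Lx families, the rodent-specific layer, all rose: the 21 passed the test, with log2 fold changes of 0.23 to 0.63 and a median of 0.38, and in all 21 the 4OHT libraries lay above the DMSO libraries. On the repeat-only scale their median was 0.09. Summed, Lx RNA was at 17194, 15760, 16798 and 16387 CPM with 4OHT, against 12509, 13898, 13786 and 13221 CPM with DMSO. Lx8, which held the most counts of any older LINE family, was at 3121, 2877, 3099 and 3055 CPM with 4OHT, against 2388, 2686, 2675 and 2567 CPM with DMSO (log2 fold change 0.27, SE 0.05, adjusted p = 0.000427). Its groups did not overlap, yet on the repeat-only scale its log2 fold change was -0.01. Lx2A1 had the largest change of the group, at 74.2, 64.2, 69.5 and 63.9 CPM with 4OHT, against 42.9, 47.0, 47.1 and 43.3 CPM with DMSO (0.63, SE 0.07, adjusted p = 2.03e-06). Lx3_Mus (0.54), Lx2B (0.53), Lx2A (0.48) and Lx5 (0.46) came next within Lx, and Lx5c had the smallest rise (0.23).

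All 3 L1VL families rose, with a median log2 fold change of 0.48 that stayed positive on the repeat-only scale (0.19). L1VL1 was at 92.9, 73.8, 87.7 and 75.3 CPM with 4OHT, against 49.8, 56.6, 53.7 and 56.0 CPM with DMSO (0.65, SE 0.08, adjusted p = 6.79e-06). L1VL2, with the most counts of the 3, was at 412, 353, 368 and 345 CPM with 4OHT, against 266, 288, 285 and 278 CPM with DMSO (0.44, SE 0.06, adjusted p = 2.64e-05). Every 4OHT library lay above every DMSO library in both. L1VL4 had a log2 fold change of 0.48 (adjusted p = 3.88e-05).

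Of the mammalian L1 series, all 9 L1MA families rose on the scale of all entries, with a median of 0.27, and so did 6 of 7 L1MB (0.16), 7 of 11 L1MC (0.19), 6 of 6 L1MD (0.28) and 16 of 27 L1ME (0.19). On the repeat-only scale the medians of all 5 series were below 0, at -0.02, -0.13, -0.10, -0.01 and -0.10 in the same order, and 4 L1MB, 2 L1MC and 1 L1ME family fell. L1MA6 was at 339, 312, 331 and 305 CPM with 4OHT, against 254, 282, 275 and 262 CPM with DMSO (log2 fold change 0.30, SE 0.06, adjusted p = 0.000454). L1MB7 was at 695, 660, 708 and 681 CPM with 4OHT, against 588, 657, 651 and 620 CPM with DMSO (0.16, adjusted p = 0.0208). The groups did not overlap in either, but came as close as 660 CPM with 4OHT and 657 CPM with DMSO in L1MB7, which no longer passed without DMSO replicate 4 (adjusted p = 0.0543), 4OHT replicate 1 (0.0524) or 4OHT replicate 3 (0.0649).

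L1MC4 was at 442, 428, 446 and 413 CPM with 4OHT, against 371, 412, 425 and 402 CPM with DMSO. Its groups overlapped, and its log2 fold change of 0.14 did not pass (adjusted p = 0.0561), but passed with the replicate number as a block (adjusted p = 0.0261). L1MD was at 274, 240, 263 and 241 CPM with 4OHT, against 209, 236, 229 and 216 CPM with DMSO (0.23, adjusted p = 0.00651). L1ME1 was at 335, 307, 333 and 312 CPM with 4OHT, against 267, 312, 301 and 281 CPM with DMSO (0.19, adjusted p = 0.0207). DMSO replicate 2 of L1ME1 reached the range of the 4OHT libraries, and this family no longer passed without DMSO replicate 1 (adjusted p = 0.0516) or DMSO replicate 4 (adjusted p = 0.0609), nor without 4OHT replicate 1 (0.0639) or 3 (0.0622).

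Of the numbered families L1M1 to L1M8, 18 of 23 tested rose, with a median of 0.26, or -0.02 on the repeat-only scale. They held the largest single changes, all in families of few counts. L1M3c was at 9.63, 6.68, 7.29 and 5.38 CPM in 4OHT libraries, against 4.17, 3.03, 4.11 and 3.44 CPM in DMSO libraries (log2 fold change 1.02, SE 0.18, adjusted p = 0.000188), the only older LINE family to reach a fold of 2.03. L1M3a was at 3.42, 2.84, 3.30 and 4.01 CPM with 4OHT, against 2.15, 1.46, 1.90 and 2.42 CPM with DMSO (0.82, SE 0.20, adjusted p = 0.00308). L1M6 was at 7.42, 8.77, 7.83 and 7.73 CPM with 4OHT, against 4.99, 4.51, 5.44 and 4.59 CPM with DMSO (0.74, SE 0.12, adjusted p = 0.000144). The groups did not overlap in these 3 families.

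Within the L1M3 lineage the families did not move by the same amount. L1M3b was at 5.04, 3.45, 5.14 and 4.38 CPM with 4OHT, against 3.04, 2.73, 3.85 and 2.39 CPM with DMSO (log2 fold change 0.62, adjusted p = 0.0116), with DMSO replicate 3 inside the range of the 4OHT libraries. L1M3d was at 6.52, 6.77, 5.38 and 6.10 CPM with 4OHT, against 3.19, 4.78, 4.47 and 4.29 CPM with DMSO (0.60, adjusted p = 0.00399), with no overlap. L1M3e (0.35) and L1M3 (0.21) also passed, whereas L1M3de (0.20, adjusted p = 0.137) did not. L1M3f was at 2.88, 1.69, 1.84 and 2.19 CPM with 4OHT, against 1.85, 2.40, 1.95 and 2.45 CPM with DMSO (0.03, SE 0.22, adjusted p = 0.924), so the ranges overlapped almost entirely.

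Further members with large changes were L1M2a, L1MCb and L1ME3F. L1M2a was at 12.2, 8.59, 10.9 and 11.5 CPM with 4OHT, against 6.99, 7.85, 6.801 and 7.31 CPM with DMSO (log2 fold change 0.62, adjusted p = 0.000739). L1MCb was at 22.8, 22.4, 18.04 and 19.96 CPM with 4OHT, against 11.6, 13.2, 14.2 and 12.02 CPM with DMSO (0.75, adjusted p = 1.88e-05). L1ME3F was at 29.2, 24.7, 28.0 and 28.0 CPM with 4OHT, against 14.9, 19.8, 20.1 and 19.2 CPM with DMSO (0.61, adjusted p = 0.000118). All 3 were higher in every 4OHT library. L1M4, the numbered family with the most counts, was at 850, 776, 833 and 784 CPM with 4OHT, against 680, 771, 751 and 716 CPM with DMSO (0.19, adjusted p = 0.0110), and the groups came as close as 776 CPM with 4OHT and 771 CPM with DMSO.

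**Figure D2:**
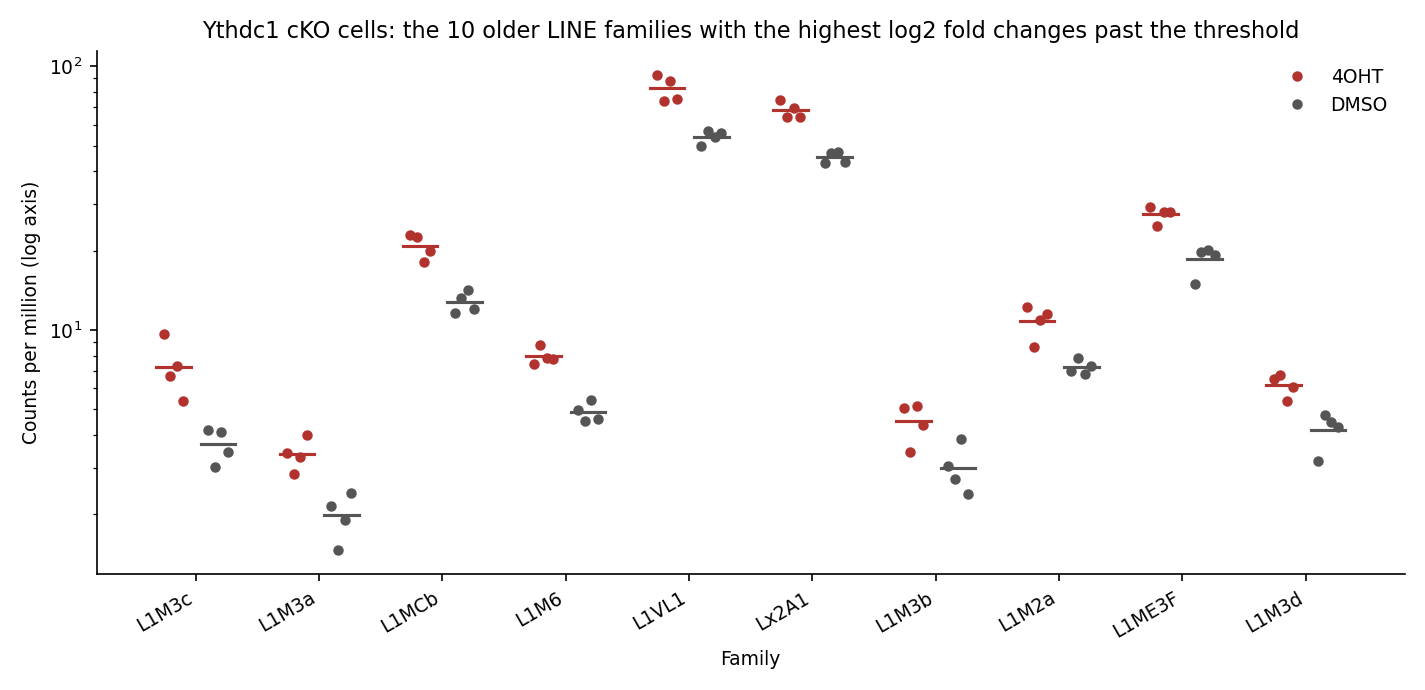
Level in CPM (log axis) of the 10 older LINE families with the largest rise in Ythdc1-cKO 4OHT libraries (left of each pair) against DMSO libraries (right), each point 1 of 4 libraries and each bar the group mean. The groups are apart in 9 of the 10 families and overlap in L1M3b. The 10 were chosen by their rise past the threshold in these same libraries, which favours groups that are apart. Every 4OHT library lay above every DMSO library in 20.1% of all entries tested and 52% of repeat families.

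The 4 L2 families, of a separate LINE clade, all rose on the scale of all entries (log2 fold changes of 0.20 to 0.26), with a median of 0.23 there and -0.06 on the repeat-only scale. L2a was at 1502, 1408, 1513 and 1463 CPM with 4OHT, against 1186, 1300, 1308 and 1305 CPM with DMSO (log2 fold change 0.25, SE 0.05, adjusted p = 0.00113). Of the 5 HAL1 families 2 rose (median 0.23, or -0.06 on the repeat-only scale). The family named HAL1 was at 228, 213, 227 and 219 CPM with 4OHT, against 177, 210, 201 and 189 CPM with DMSO (0.23, adjusted p = 0.00563). L2a and HAL1 showed no overlap between the groups.

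The families that did not pass held fewer counts at the median, though the ranges overlapped. The 92 that rose had a median of 6611 counts per library and a median SE of 0.0608, and the 27 that did not pass had a median of 528 counts and a median SE of 0.108. The largest p-values among the 27, besides L1M3f, were in L1PB4, L1P5 and L1MEa. L1PB4 was at 6.23, 6.86, 6.24 and 5.79 CPM with 4OHT, against 5.98, 5.80, 7.19 and 5.94 CPM with DMSO (log2 fold change 0.05, adjusted p = 0.766). L1P5 was at 4.84, 4.12, 3.52 and 3.44 CPM with 4OHT, against 2.57, 4.62, 3.90 and 4.34 CPM with DMSO (0.09, adjusted p = 0.747). In both L1P families the libraries of the groups were interleaved. L1MEa was at 10.7, 10.5, 11.1 and 11.3 CPM with 4OHT, against 9.39, 12.1, 9.70 and 11.8 CPM with DMSO (0.06, adjusted p = 0.715). The undivided L1M entry was at 13.8, 12.4, 13.6 and 14.1 CPM with 4OHT, against 11.44, 12.1, 11.9 and 12.7 CPM with DMSO (0.20, adjusted p = 0.0973).

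**Figure D3:**
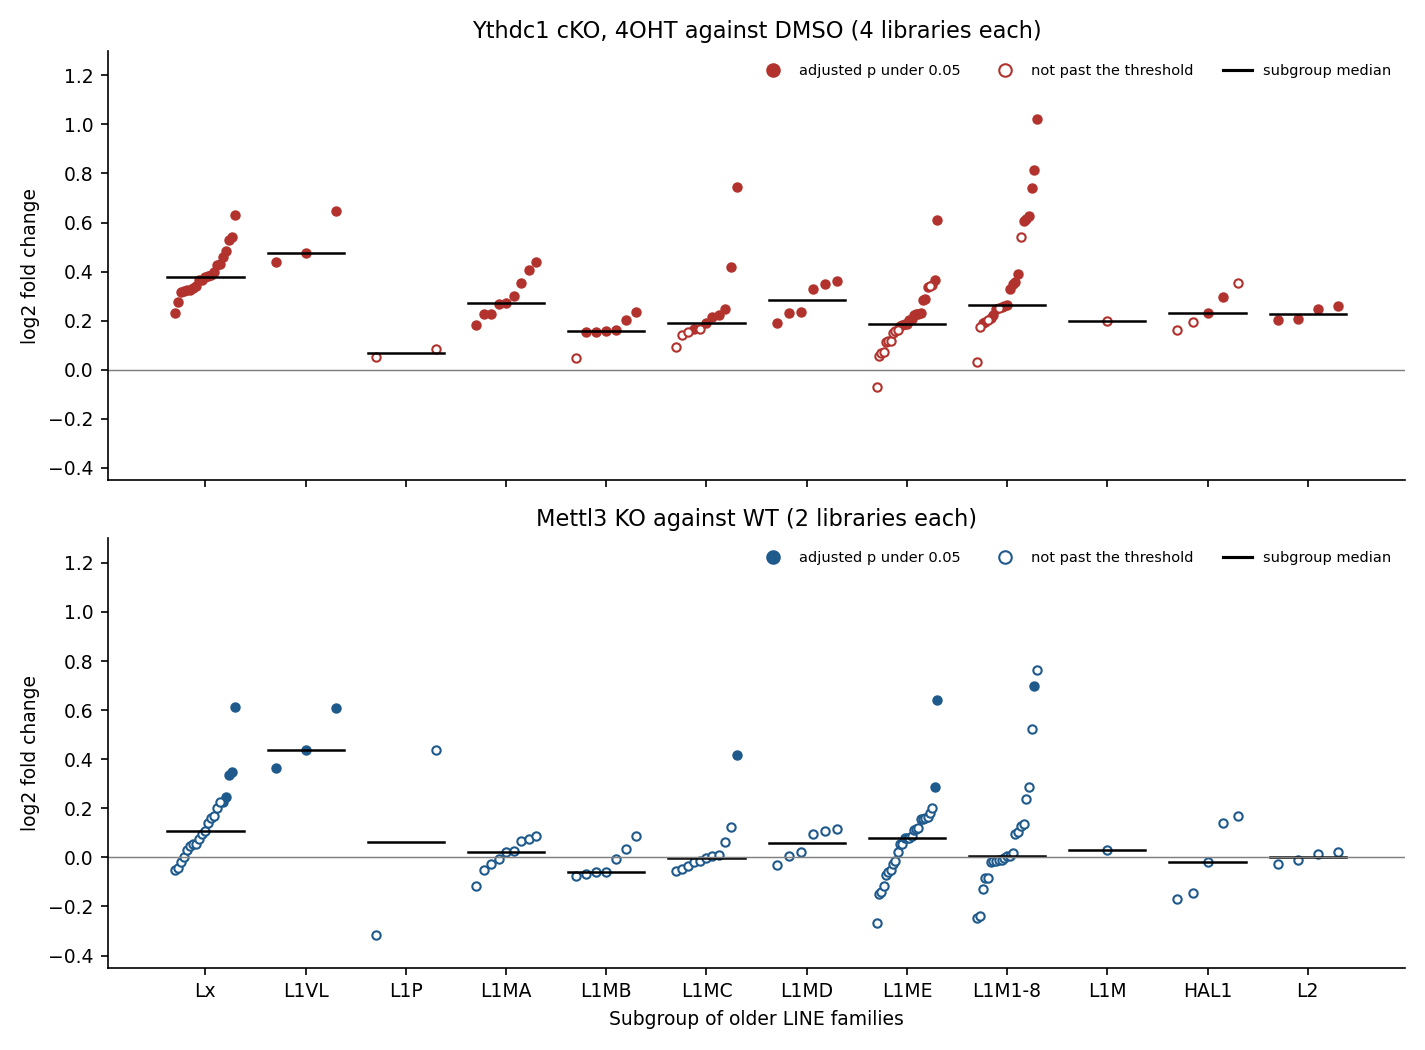
Log2 fold change of each older LINE family by subgroup, in Ythdc1-cKO 4OHT against DMSO (top) and Mettl3 KO against WT (bottom), on the scale of all entries, each point 1 family and each bar the subgroup's median. In the top panel the Lx points lie between 0.23 and 0.63; on the repeat-only scale the medians of all subgroups other than Lx and L1VL fall below 0.

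Other repeats and transcripts moved in the same libraries. By the same test, 31 of 32 SINE families (median 0.17) and 31 of 86 DNA transposon families (median 0.20) rose. The medians of these non-LINE classes lay near those of L1MB, L1MC and L1ME, and below that of L1MD. Summed sense intronic entries, the annotated RNAs read from within introns, were at 401 to 425 CPM in 4OHT libraries and 348 to 380 CPM in DMSO libraries. Of the 186 tested 27 rose and 12 fell, smaller shares than the 23.7% of all entries that rose and the 21.4% that fell. Marker sums moved too: 16 two-cell-like markers stood at 145 to 308 CPM with 4OHT and 11.7 to 52.0 CPM with DMSO, 8 ESC markers at 1080 to 1353 CPM with 4OHT and 1673 to 1938 CPM with DMSO, primitive endoderm markers at 689 to 1027 CPM with 4OHT and 418 to 539 CPM with DMSO, and feeder markers at 9.38 to 15.1 CPM with 4OHT and 15.4 to 19.6 CPM with DMSO. Mitochondrial entries summed to 8565 to 11095 CPM with 4OHT and 11674 to 13358 CPM with DMSO. The part of intronic RNA, cell makeup and mitochondrial share in the older LINE change was not tested.

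Of 33 genes that act on LINE chromatin or LINE RNA, 22 fell and 2 rose in Ythdc1-cKO 4OHT cells, where 21.4% of all entries fell. Ythdc1, the targeted gene, is on this list and among those that fell. Mov10, an RNA helicase that restricts LINE retrotransposition, was at 46.4 ± 9.45 CPM with 4OHT and 138 ± 12.1 CPM with DMSO (SD, n = 4 each; log2 fold change -1.53). Uhrf1, which directs maintenance DNA methylation, fell by 0.75 on the log2 scale, and Ehmt2, a histone H3 lysine 9 methyltransferase, fell by 0.67. Cbx3, which encodes a heterochromatin protein, fell by 0.74, and Pphln1, which encodes the periphilin subunit of the HUSH silencing complex, fell by 0.68. Dnmt3l, the cofactor of de novo DNA methyltransferases, rose to 158 ± 20.2 CPM with 4OHT, against 62.3 ± 17.1 CPM with DMSO (1.39, adjusted p = 4.96e-07), and Safb2 rose by 0.45. In Mettl3 KO libraries 13 of the 33 fell and 5 rose, where 14.9% of all entries fell, and directions differed for Mov10 (0.60, adjusted p = 0.000564) and Dnmt3l (-1.01, adjusted p = 0.00588).

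In the Mettl3 set the older LINE families moved little as a group. Their sum was at 29777 and 32897 CPM in the libraries labelled Mettl3 KO, against 30286 and 30851 CPM in WT, a difference of 2.51% with the WT libraries inside the KO range. By edgeR 12 of 119 families rose and 0 fell, where 16.4% of all entries rose and 14.9% fell and 10.7% of repeat families rose. At an unadjusted p under 0.05 there were 14, and DESeq2 called 8 higher and 0 lower; without a filter on low counts 7 were higher. The median log2 fold change was 0.03, against 0.02 over all entries, and 74 of 119 were positive. All 6 L1Md families rose in the same libraries (median 0.62), and older LINE counts per L1Md count were 3.40 and 3.27 in Mettl3 KO, against 4.69 and 4.73 in WT.

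The 12 that rose were the 3 L1VL families, 5 Lx families (Lx2A1, Lx2B2, Lx2B, Lx4B and Lx3_Mus), L1M3c, L1MCb, L1ME3E and L1ME3. L1M3c was at 7.17 and 6.52 CPM in Mettl3 KO, against 4.24 and 4.21 CPM in WT (log2 fold change 0.70, SE 0.19, adjusted p = 0.0208). L1ME3E was at 19.2 and 25.1 CPM in Mettl3 KO, against 13.8 and 14.7 CPM in WT (0.64, SE 0.15, adjusted p = 0.0109). Lx2A1 was at 67.0 and 73.1 CPM in Mettl3 KO, against 47.7 and 44.1 CPM in WT (0.61, SE 0.10, adjusted p = 0.00168). In each of the 3 both KO libraries lay above both WT libraries. L1VL1 was at 95.2 and 118 CPM in Mettl3 KO, against 65.4 and 74.6 CPM in WT (0.61, adjusted p = 0.00409), and L1VL4 had a log2 fold change of 0.44 (adjusted p = 0.00807). On the repeat-only scale 8 of the 12 still passed: the 3 L1VL, Lx2A1, Lx2B2, Lx2B, L1M3c and L1ME3E.

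The families that hold most counts showed little difference in the Mettl3 set. Lx8 was at 2681 and 2889 CPM in Mettl3 KO, against 2795 and 2868 CPM in WT, and L2a at 1464 and 1525 CPM in Mettl3 KO, against 1481 and 1485 CPM in WT. L1M4 was at 707 and 812 CPM in Mettl3 KO, against 737 and 799 CPM in WT, and L1MB7 at 548 and 634 CPM in Mettl3 KO, against 605 and 629 CPM in WT. In these 4 both WT libraries lay within the KO range. L1MC4 (364 and 422 CPM in Mettl3 KO, against 404 and 415 CPM in WT), L1MA6 (266 and 306 CPM, against 288 and 296 CPM in WT), L1ME1 (284 and 325 CPM, against 315 and 321 CPM in WT) and L1MD (215 and 238 CPM, against 222 and 230 CPM in WT) overlapped likewise. HAL1 was at 196 and 221 CPM in Mettl3 KO, against 213 and 211 CPM in WT, and L1M at 11.2 and 14.1 CPM in Mettl3 KO, against 11.7 and 13.1 CPM in WT. L1PB4 was at 4.71 and 5.57 CPM in Mettl3 KO, against 6.42 and 6.41 CPM in WT, and did not pass (adjusted p = 0.248). L1VL2, which did pass (0.36, adjusted p = 0.00898), was at 411 and 474 CPM in Mettl3 KO, against 343 and 346 CPM in WT.

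The Mettl3 counts of calls rest on single libraries. Without KO replicate 1 there were 33 higher, without KO replicate 2 there were 12 higher and 20 lower, and without either WT replicate there were 0 higher. The swing was not particular to older LINEs. Among repeat families and among all entries, too, more were called without either KO library and fewer without either WT library. KO replicate 2, the library with Mettl3 at the WT level, was the higher of the KO libraries in Lx8, L2a, L1M4, L1MB7 and L1VL2. Two-cell-like markers summed to 167 to 187 CPM in Mettl3 KO and 2.20 to 2.37 CPM in WT, and sense intronic entries to 373 to 383 CPM in Mettl3 KO and 381 to 391 CPM in WT. Their part in the Mettl3 values was not tested.

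The Ythdc1 and Mettl3 sets share no library. Of the 12 families that rose in Mettl3 KO, 11 also rose in Ythdc1-cKO 4OHT cells, which is 91.7% of the Mettl3 calls and 11.96% of the 92 Ythdc1 calls. Of all 119 older LINE families tested in both sets, 77.3% rose in Ythdc1-cKO 4OHT cells. The exception was L1ME3E, at 13.9, 12.7, 15.3 and 14.3 CPM in Ythdc1-cKO 4OHT libraries, against 11.6, 15.4, 13.8 and 12.3 CPM in DMSO libraries (log2 fold change 0.11, adjusted p = 0.419). When the difference between the effects was itself tested over the 12 libraries (Ythdc1 effect minus Mettl3 effect), 36 of 119 older LINE families were higher for Ythdc1 and 0 lower. Of all entries 13.7% were higher and 11.6% lower in this test, and 27.6% of repeat families were higher. At an unadjusted p under 0.05 there were 71, and DESeq2 called 31 higher and 1 lower. The median difference was 0.27, against 0.05 over all entries. Over repeat families the median difference was 0.19 to 0.30 with any 1 library left out.

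The calls of this difference were spread unevenly over the subgroups. The difference passed in 13 of 21 Lx, 4 of 4 L2, 5 of 9 L1MA, 5 of 27 L1ME and 4 of 23 numbered L1M families. These counts do not rank the subgroups by the size of the difference, since a pass also depends on the SE. L2b passed at 0.23 (SE 0.08), whereas L1M7, of the numbered families, did not at 0.42 (SE 0.18). The largest differences were in L1M3d (0.77, SE 0.27, adjusted p = 0.0380), L1ME3F (0.60, SE 0.17, adjusted p = 0.0159), L1MA4A (0.57, SE 0.12, adjusted p = 0.00134), L1M2c (0.55, SE 0.18, adjusted p = 0.0293) and L1ME3B (0.52, SE 0.14, adjusted p = 0.0112). L1MA4A was at 133, 114, 117 and 115 CPM in Ythdc1-cKO 4OHT libraries, against 86.5, 97.2, 96.4 and 90.3 CPM in DMSO libraries, and at 83.5 and 97.2 CPM in Mettl3 KO, against 97.5 and 99.0 CPM in WT. It was thus higher in every 4OHT library but lower in both KO libraries. L1M2c was at 18.2, 18.6, 18.5 and 14.02 CPM with 4OHT, against 14.03, 15.8, 14.4 and 15.3 CPM with DMSO, and at 12.5 and 13.0 CPM in Mettl3 KO, against 14.3 and 15.9 CPM in WT. L1ME3B was at 43.7, 37.8, 42.1 and 40.5 CPM with 4OHT, against 36.0, 40.5, 35.4 and 33.9 CPM with DMSO, and at 29.6 and 37.2 CPM in Mettl3 KO, against 38.9 and 41.5 CPM in WT. In both of these the 4OHT and DMSO ranges overlapped, and both KO libraries lay below both WT libraries.

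L1M3d was at 4.04 and 4.80 CPM in Mettl3 KO, against 5.08 and 4.61 CPM in WT, and L1ME3F at 19.5 and 19.5 CPM in Mettl3 KO, against 17.7 and 19.8 CPM in WT. Both overlapped there, unlike in the Ythdc1 set. The 3 L1VL families, which rose in both sets, had differences of 0.08 (L1VL1, SE 0.15), 0.08 (L1VL4, SE 0.13) and 0.12 (L1VL2, SE 0.11), and that of Lx2A1 was 0.06 (SE 0.12) (adjusted p = 0.474 to 0.779 over these 4). The median difference over the 6 L1Md families was 0.01. The count of 36 rests on the scale and on single Mettl3 libraries: on the repeat-only scale 0 were higher and 1 was lower (L1ME3E, -0.75, adjusted p = 0.00451), with a median of -0.01. The count was 8 without WT replicate 2, 9 without KO replicate 1, 13 without WT replicate 1 and 23 without Ythdc1-cKO DMSO replicate 4. Without each of these libraries, fewer repeat families and fewer entries in all were higher as well. Of the 5 families named for the largest difference, L1MA4A kept its call when any 1 library was left out. L1M2c and L1M3d lost theirs without either WT library, either KO library or Ythdc1-cKO DMSO replicate 1, L1ME3F and L1ME3B without WT replicate 2 or KO replicate 1, and L1ME3F also without KO replicate 2.

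**Figure D4:**
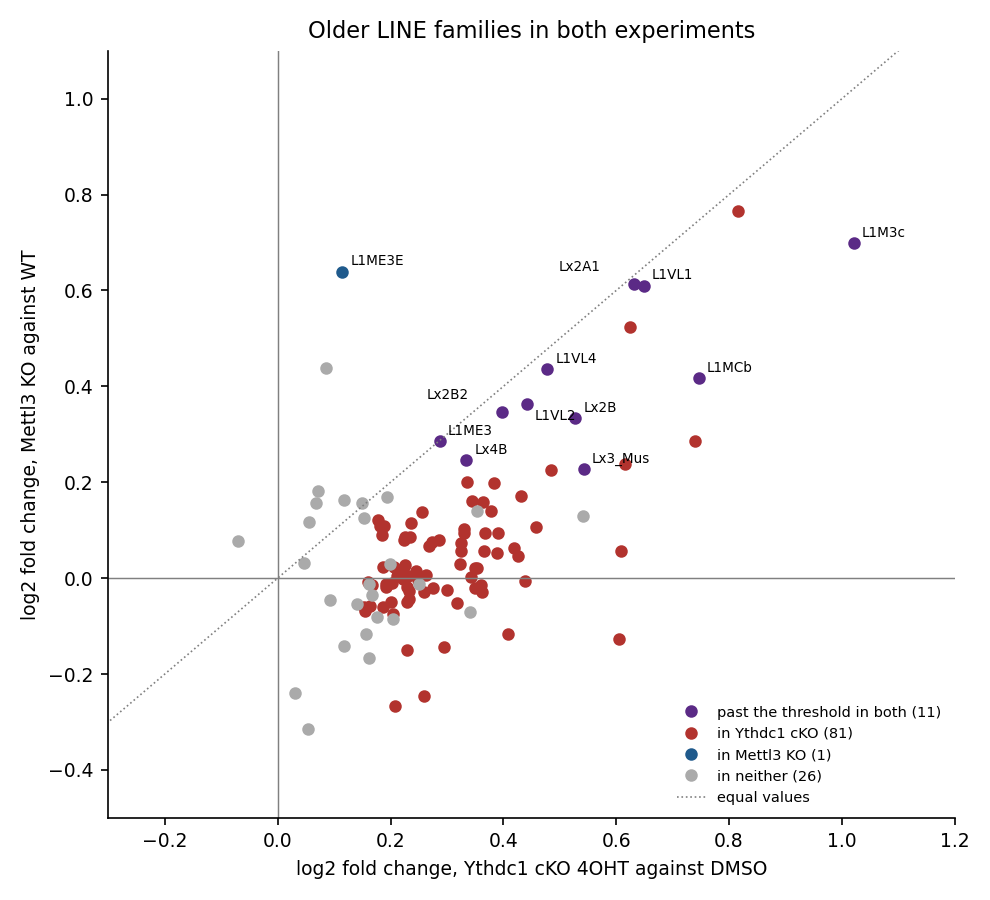
Log2 fold change of each of the 119 older LINE families in Ythdc1-cKO 4OHT against DMSO (horizontal axis) and in Mettl3 KO against WT (vertical axis), on the scale of all entries, coloured by which test the family passed. The 11 families that rose in both sets include the 3 L1VL families, Lx2A1 and L1M3c; L1ME3E rose in the Mettl3 set and not in the Ythdc1 set.

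In the Dux set the older LINE sums were again higher with 4OHT. In Dux-KO cells they were at 28473 and 29635 CPM with 4OHT, against 18324 and 24770 CPM with DMSO, a mean difference of 34.8%. In Dux-Het cells they were at 28174 and 31204 CPM with 4OHT, against 21615 and 26618 CPM with DMSO, a mean difference of 23.1%. In the pair with no Dux label the sum was 29189 CPM with 4OHT and 23454 CPM with DMSO. Every 4OHT library lay above every DMSO library of its genotype, and the 4OHT libraries were closer to each other than the DMSO libraries were. As a share of repeat counts, older LINEs were at 12.2 ± 0.279% with 4OHT and 11.41 ± 1.27% with DMSO in Dux-KO cells, and at 12.1 ± 0.435% with 4OHT and 11.9 ± 0.620% with DMSO in Dux-Het cells (SD, n = 2 each).

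Of the 120 families tested, 3 rose in Dux-KO 4OHT cells and 0 fell by edgeR, with 71 at an unadjusted p under 0.05 and 6 higher and 0 lower by DESeq2. Without a filter on low counts 28 were higher, where 149 repeat families and 2574 entries in all were higher. DESeq2 called 85 repeat families higher. In the filtered edgeR fit 5.5% of all entries rose and 4.36% fell, and 5.83% of repeat families rose. The median log2 fold change of the 120 was 0.43 (0.05 over all entries, 0.41 over repeat families), and 117 were positive. In 111 both 4OHT libraries lay above both DMSO libraries, which held for 33.5% of all entries and 83% of repeat families. L1MCb was at 19.0 and 19.9 CPM with 4OHT, against 9.62 and 12.4 CPM with DMSO (log2 fold change 0.81, SE 0.21, adjusted p = 0.0323). L1M6 was at 7.84 and 7.30 CPM with 4OHT, against 3.90 and 4.77 CPM with DMSO (0.80, SE 0.22, adjusted p = 0.0429). Lx2B was at 164 and 176 CPM with 4OHT, against 104 and 128 CPM with DMSO (0.55, SE 0.15, adjusted p = 0.0453). DMSO replicate 1 was the lower library in all 3.

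The Dux-KO count changed with single libraries. Without Dux-KO DMSO replicate 1 the count was 0 and the median 0.17, and without Dux-KO DMSO replicate 2 they were 32 and 0.66. Without either Dux-KO 4OHT library the count was 0, without Dux-Het 4OHT replicate 2 it was 1, and without either Dux-Het DMSO library it was 7. Among repeat families and among all entries, too, fewer rose without either Dux-KO 4OHT library, Dux-KO DMSO replicate 1 or Dux-Het 4OHT replicate 2. More rose in both without either Dux-Het DMSO library. Without Dux-KO DMSO replicate 2 more repeat families rose, but fewer entries in all. On the repeat-only scale 0 of 120 passed and the median was 0.03. In Dux-KO DMSO replicate 1 repeats took 16.4% of all counts, against 20.8% in replicate 2, and mitochondrial entries summed to 3445 CPM, against 10743 CPM in replicate 2.

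In Dux-Het 4OHT cells 0 of 120 rose and 0 fell by edgeR, with 17 at an unadjusted p under 0.05, 2 higher by DESeq2 and 4 higher without a filter on low counts. DESeq2 called 52 repeat families higher, and the fit without a filter 74. In the filtered edgeR fit 4.99% of all entries rose and 4.34% fell, and 1.91% of repeat families rose. The median was 0.29 (0.04 over all entries, 0.30 over repeat families), 117 were positive, and in 83 both 4OHT libraries lay above both DMSO libraries, which held for 27.8% of all entries and 71.6% of repeat families. Lx2B was at 166 and 181 CPM with 4OHT, against 117 and 138 CPM with DMSO (log2 fold change 0.44, adjusted p = 0.0961). L1MCb was at 17.2 and 20.5 CPM with 4OHT, against 10.3 and 13.8 CPM with DMSO (0.65, adjusted p = 0.0725). Neither overlapped, whereas L1M6, at 6.45 and 5.97 CPM with 4OHT, against 5.06 and 6.25 CPM with DMSO (0.14, adjusted p = 0.740), did. On the repeat-only scale the median was -0.00. On the scale of all entries it was 0.47 without Dux-Het DMSO replicate 2, 0.14 without Dux-Het DMSO replicate 1, and 0.20 to 0.37 without any 1 of the other Dux-KO or Dux-Het libraries.

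The families with the most counts in each subgroup had a higher mean with 4OHT than with DMSO in both genotypes. Lx8 was at 2548 and 2677 CPM in Dux-KO 4OHT, against 1698 and 2183 CPM in Dux-KO DMSO, and at 2574 and 2792 CPM in Dux-Het 4OHT, against 2000 and 2362 CPM in Dux-Het DMSO. L2a was at 1403 and 1506 CPM in Dux-KO 4OHT, against 895 and 1205 CPM in Dux-KO DMSO, and at 1501 and 1546 CPM in Dux-Het 4OHT, against 1062 and 1299 CPM in Dux-Het DMSO. L1VL2 was at 356 and 360 CPM in Dux-KO 4OHT, against 212 and 282 CPM in Dux-KO DMSO, and at 341 and 373 CPM in Dux-Het 4OHT, against 228 and 311 CPM in Dux-Het DMSO. In these 3 the 4OHT and DMSO libraries did not overlap within a genotype, and their adjusted p-values were 0.0870 or higher. L1MA6 was at 269 and 293 CPM in Dux-KO 4OHT, against 148 and 241 CPM in Dux-KO DMSO, and at 264 and 297 CPM in Dux-Het 4OHT, against 193 and 253 CPM in Dux-Het DMSO. L1MB7 was at 598 and 607 CPM in Dux-KO 4OHT, against 354 and 541 CPM in Dux-KO DMSO, and at 572 and 648 CPM in Dux-Het 4OHT, against 445 and 564 CPM in Dux-Het DMSO. These, too, were apart within each genotype.

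L1M4 was at 766 and 761 CPM in Dux-KO 4OHT, against 482 and 694 CPM in Dux-KO DMSO, and at 725 and 797 CPM in Dux-Het 4OHT, against 563 and 749 CPM in Dux-Het DMSO, where the ranges overlapped. L1ME1 was at 305 and 302 CPM in Dux-KO 4OHT, against 184 and 277 CPM in Dux-KO DMSO, and at 281 and 319 CPM in Dux-Het 4OHT, against 236 and 301 CPM in Dux-Het DMSO, again with overlap in Dux-Het alone. L1MC4 was at 388 and 398 CPM in Dux-KO 4OHT, against 251 and 354 CPM in Dux-KO DMSO, and at 381 and 415 CPM in Dux-Het 4OHT, against 305 and 371 CPM in Dux-Het DMSO. L1MD was at 222 and 226 CPM in Dux-KO 4OHT, against 137 and 200 CPM in Dux-KO DMSO, and at 210 and 226 CPM in Dux-Het 4OHT, against 170 and 205 CPM in Dux-Het DMSO. Neither of these overlapped. HAL1 was at 194 and 198 CPM in Dux-KO 4OHT, against 127 and 168 CPM in Dux-KO DMSO, and at 190 and 196 CPM in Dux-Het 4OHT, against 152 and 171 CPM in Dux-Het DMSO. L1M was at 11.2 and 12.1 CPM in Dux-KO 4OHT, against 8.24 and 12.1 CPM in Dux-KO DMSO, and at 12.1 and 14.4 CPM in Dux-Het 4OHT, against 10.2 and 10.6 CPM in Dux-Het DMSO. L1PB4 was at 6.62 and 6.99 CPM in Dux-KO 4OHT, against 4.44 and 5.42 CPM in Dux-KO DMSO, and at 5.90 and 6.97 CPM in Dux-Het 4OHT, against 4.19 and 6.29 CPM in Dux-Het DMSO. L1M overlapped in Dux-KO cells, and L1PB4 in Dux-Het cells.

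Set directly against each other, the Dux genotypes gave no older LINE family past the test. Dux-KO against Dux-Het under 4OHT gave 0 of 120 by edgeR, 0 at an unadjusted p under 0.05 and 0 by DESeq2, with a median log2 fold change of -0.02, where 0.276% of all entries passed in either direction. Under DMSO it gave 0, 0 and 0, with a median of -0.15, where 0.0341% passed. The 4OHT effect in Dux-KO cells minus that in Dux-Het cells gave 0, 0 and 0, with a median of 0.13, where 0% of all entries passed. With 2 libraries a group, a p that misses the threshold does not show that the genotypes are alike. These comparisons share libraries with those above.

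Dux-dependent genes separated the genotypes in the same libraries. Duxf3, a Dux gene, was at 0.0199 and 0.0901 CPM in Dux-KO 4OHT libraries, against 0.0673 and 0.0818 CPM in Dux-KO DMSO libraries, and at 1.55 and 0.924 CPM in Dux-Het 4OHT libraries, against 0.141 and 0.0692 CPM in Dux-Het DMSO libraries. Under 4OHT 13 of 16 two-cell-like markers were lower in Dux-KO than in Dux-Het. Their sum was 0.0901 to 0.179 CPM in Dux-KO 4OHT and 0.135 to 0.205 CPM in Dux-KO DMSO, with 11 of 16 markers at 0, whereas it was 96.0 to 115 CPM in Dux-Het 4OHT and 11.42 to 15.2 CPM in Dux-Het DMSO. The older LINE median in Dux-KO cells, 0.43, comes from these same Dux-KO libraries, and it changed with single libraries and with the scale, as given above. The part of two-cell-like cells in the older LINE values was not tested. Sense intronic entries summed to 417 to 430 CPM in Dux-KO 4OHT and 321 to 342 CPM in Dux-KO DMSO, and to 402 to 495 CPM in Dux-Het 4OHT and 327 to 397 CPM in Dux-Het DMSO, and their part was not tested. Of the 33 LINE silencing and LINE RNA genes, 5 fell and 1 rose in Dux-KO 4OHT cells, and 8 fell and 1 rose in Dux-Het 4OHT cells, where 4.36% of all entries fell in Dux-KO and 4.34% in Dux-Het.

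The pair with no Dux label has 1 library a group and no test. Of 120 families 117 had a log2 ratio above 0 (with 0.5 CPM added to both levels), where 53.1% of all entries did, and the median ratio was 0.31 (0.03 over all entries, 0.30 over repeat families). The largest ratios were in L1M3d (0.85), L1M3c (0.82) and L1M2a (0.79). L1M3c had 226 counts with 4OHT (exact Poisson 95% interval 197 to 257) and 102 counts with DMSO (83.2 to 124), which is 5.04 CPM with 4OHT and 2.63 CPM with DMSO. L1M3d had 243 counts with 4OHT (213 to 276) and 108 counts with DMSO (88.6 to 130). The intervals, which cover counting error only, did not overlap in either. Lx8 was at 2667 CPM with 4OHT and 2157 CPM with DMSO, and L2a at 1466 CPM with 4OHT and 1194 CPM with DMSO. L1VL2 was at 336 CPM with 4OHT and 265 CPM with DMSO, L1M4 at 731 CPM with 4OHT and 598 CPM with DMSO, and L1MB7 at 582 CPM with 4OHT and 491 CPM with DMSO.

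**Figure D5:**
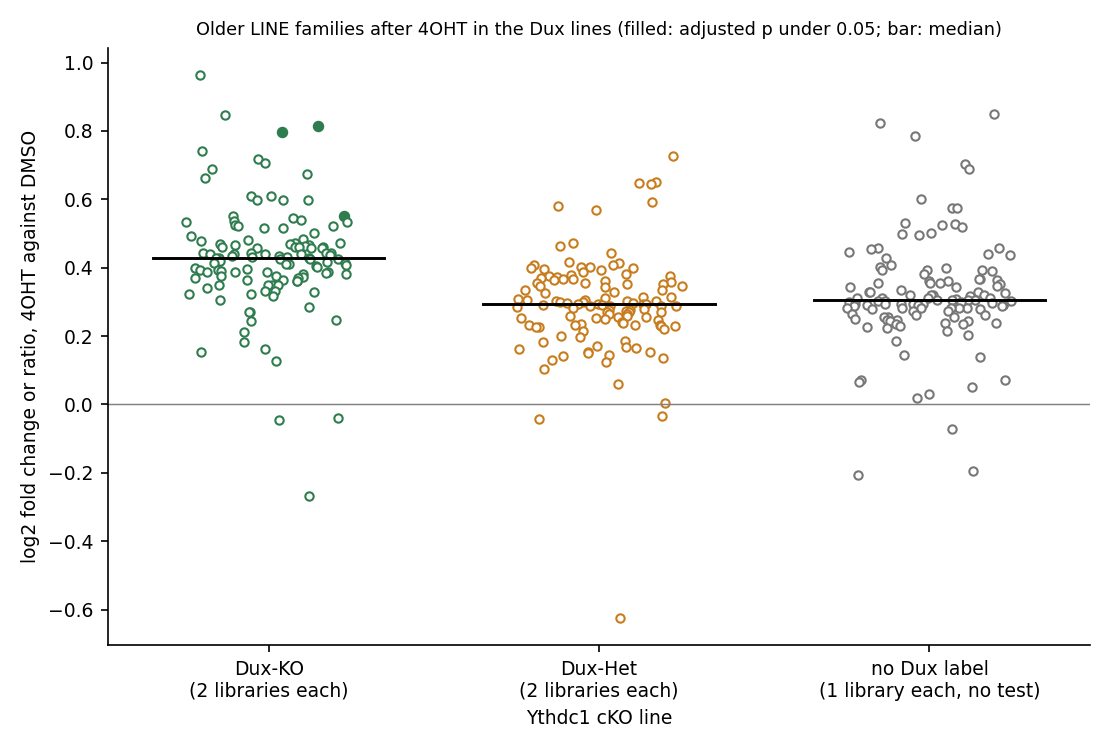
Log2 change with 4OHT against DMSO of each of the 120 older LINE families in Dux-KO, Dux-Het and no-Dux-label cells, on the scale of all entries, each point 1 family and each bar the median; the last column is 1 library against 1. The medians are 0.43, 0.29 and 0.31; on the repeat-only scale those of Dux-KO and Dux-Het are 0.03 and -0.00.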

How the data were processed

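Total RNA was depleted of rRNA and sequenced as paired ends from libraries whose second strand was digested, per the labels' protocols; the sources used here do not say whether counting used strand, how reads that map to several copies were handled, or which repeat annotation served. bcl2fastq, STAR 2.7, Bowtie2, RSEM and the mm10 build are named in the submitters' processing notes. Raw whole-number counts of 44749 genes and repeat families in 22 libraries make up the authors' first deposited table. Their second deposited table holds signal, equal to the counts over a single scaling factor for every library (largest relative deviation 5.44e-15 over the 34971 lines used); it served only for these factors. The library totals are those of the count table, 24955414 to 54139132. Libraries were grouped by their titles, since the genotype and treatment fields of the Dux set are shifted against them.

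Each set was fitted apart (8, 4 and 10 libraries, and 12 for the difference between the Ythdc1 and Mettl3 effects) with edgeR 4.0.16 in R 4.3.3: filterByExpr, TMM, quasi-likelihood test, Benjamini-Hochberg over all entries, threshold 0.05. The fits were tested on simulated data. Alternatives were DESeq2 1.42.0, no filter, the authors' factors, scaling on gene or on repeat entries alone, the replicate number as a block, and leaving out each library. In the Ythdc1 set, libraries with the same number deviated together (correlations 0.33, 0.13, 0.36 and 0.34 over 10173 entries), so there the numbers appear to pair the libraries. The pairing comes from the data, as the labels do not state it. The main fits do not use it, and it enters only through the alternative with the replicate number as a block. Replicate libraries differed beyond sampling noise (chi-square per degree of freedom 3.74 to 99.1 over entries with 20 or more counts), so none was counted as 1 with another.

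The older LINE families and the gene lists were chosen with earlier results of these data known. Families named are the 10 largest rises, any falls and the 4 largest p-values in the Ythdc1 set, the 5 largest changes past the threshold in each other comparison (all where there were 5 or fewer), and the family with the most counts in each subgroup; others were named after their values were seen. Of 35 names on the silencing list 33 are in the table.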

Additional observations from a re-analysis of the deposited data

Results flagged for a closer look

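Among 64 groups of 4 libraries examined for the families named here in the Ythdc1 set, 5 held a library far from the other 3, where chance gives about 1 in 20. L1MA4A was at 132.724 CPM in 4OHT replicate 1, above 114 to 117 CPM in the other 4OHT libraries. L1M2c was at 14.0187 CPM in 4OHT replicate 4, below 18.2 to 18.6 CPM in the others. Among DMSO libraries, L1ME3F was at 14.92 CPM in replicate 1, below 19.2 to 20.1 CPM, and L2a was at 1185.62 CPM in replicate 1, below 1300 to 1308 CPM. L1PB4 was at 7.186 CPM in DMSO replicate 3, above 5.80 to 5.98 CPM. Of these 3 DMSO values, 2 are from replicate 1, the library that stood apart from the other DMSO libraries over all entries. Without it, the log2 fold change with 4OHT was 0.51 for L1ME3F (adjusted p = 0.000140) and 0.20 for L2a (adjusted p = 0.00142).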

How the results depend on the processing

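On repeat entries alone the Ythdc1 set gave 14 older LINE families higher and 7 lower (median -0.0409), Dux-KO 0 higher (median 0.0296), Dux-Het a median of -0.00389, and the Ythdc1 effect minus the Mettl3 effect 0 higher and 1 lower (median -0.00889). Relative to the library's repeat counts the log2 difference of the summed level was 0.0233 in the Ythdc1 set, 0.11 in Dux-KO and 0.0286 in Dux-Het. In the Ythdc1 set this scaling reversed L1M3f (-0.26), L1PB4 (-0.23), L1P5 (-0.20), L1MEa (-0.23), HAL1 (-0.0581), L1M (-0.0909), L1M4 (-0.10), L1MB7 (-0.12), L1MC4 (-0.15), L1MD (-0.0593), L1ME1 (-0.10), L2a (-0.0433) and Lx8 (-0.01395); these values are relative to other repeats by construction. Without a filter 7 families were higher in Mettl3 KO, 28 in Dux-KO 4OHT and 4 in Dux-Het 4OHT. Over all repeat families these counts were 75, 149 and 74. DESeq2 called 6 higher in Dux-KO, 2 in Dux-Het and 1 lower in the Ythdc1 effect minus the Mettl3 effect. The authors' factors gave 1 in Dux-KO and scaling on gene entries 1 in Dux-Het. The cause was not tested. With the replicate number as a block, 99 were higher in the Ythdc1 set, 12 in Mettl3 KO, 38 in Dux-KO, 6 in Dux-Het and 45 in the Ythdc1 effect minus the Mettl3 effect. In the same order, the block gave 676, 110, 214, 75 and 335 repeat families higher. The main fits gave 637, 110, 61, 20 and 288. In the Mettl3 and Dux sets the labels give the libraries only a shared number. The correlation of same-numbered libraries was 0.08 in the Mettl3 set, 0.24 in Dux-KO and 0.54 in Dux-Het. With 2 libraries a group both pairs give the same value by construction. Whether the numbers pair the libraries in these sets thus cannot be told from it. Of the families named for their change within a comparison, the block moved none past the threshold. Of those named in the Ythdc1 set for the most counts in a subgroup, it moved L1MC4 alone. The families with the most counts were not followed through the block in the other sets.

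Leaving out 1 library at a time, families higher ranged from 75 to 93 in the Ythdc1 set (median 0.21 to 0.27), 0 to 33 in Mettl3 KO (lower 0 to 20, median -0.0544 to 0.11), 0 to 32 in Dux-KO (median 0.17 to 0.66), 0 to 1 in Dux-Het (median 0.14 to 0.47), and 8 to 41 in the Ythdc1 effect minus the Mettl3 effect (lower 0 to 1, median 0.16 to 0.32). The counts over repeat families and over all entries also changed with the library left out. The medians of Dux-KO against Dux-Het ranged from -0.0927 to 0.0661 under 4OHT and from -0.39 to 0.07 under DMSO, and that of the 4OHT effect in Dux-KO minus that in Dux-Het from -0.0947 to 0.37. In the Ythdc1 set L1M3f ranged from -0.15 to 0.13, L1P5 from -0.0732 to 0.18 and L1MEa from -0.0123 to 0.11. A lone library left in a group is assumed to vary like those of the other groups. The 27 families not past the test in the Ythdc1 set had a median of 528 counts per library (26.25 to 17340) and the 92 that rose 6611 (110 to 116615), so the ranges overlap, and the part of depth in the missed calls was not tested.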
